A study of Mus musculus with 2 samples.

Results

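The STAT and SOCS genes were followed in messenger RNA of CD11b+ cells from mouse pancreatic tumours. The genes are Stat2, Stat3, Stat4, Stat5a, Stat5b and Stat6, which encode STAT transcription factors, and Socs1, Socs2 and Socs3, which encode suppressors of cytokine signalling. They were chosen by gene symbol, and all 9 were found among the 49585 gene identifiers counted. CD11b (Itgam) is an integrin chain that macrophages, monocytes, granulocytes and some dendritic cells carry. Mouse pancreatic cancer cell lines, which the labels do not name, were grown under the skin of mice of the strain NRP2f/flCSF1R-iCRE (BL6 background). Both groups therefore carry loxP-flanked Nrp2 alleles together with a Cre recombinase that tamoxifen switches on and that the Csf1r promoter, a promoter of monocytes and macrophages, drives. Animals of the test group, labelled Test NRP2 KO, received tamoxifen each day once tumours were palpable, and the labels name no injection for the Control animals. Tamoxifen and the loss of Nrp2 thus cannot be told apart. Tumours were taken at 15 days, CD11b+ cells were pulled out with magnetic beads, and each group's single library was made from pooled RNA of 3 animals. The sources used here give neither age nor sex.

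STAT proteins wait in the cytoplasm until a cytokine receptor is engaged. Janus kinases (JAKs) bound to the receptor then phosphorylate them, and STAT dimers enter the nucleus and switch on target genes. SOCS genes are among those targets, and the SOCS proteins bind receptors and kinases and close the loop. In tumour myeloid cells, STAT3 acts downstream of the IL-6 and IL-10 receptors, STAT6 downstream of the IL-4 and IL-13 receptor and STAT5 downstream of the GM-CSF receptor. STAT2 works with IRF9 in the type I interferon response, and STAT4 serves the IL-12 receptor, mostly in lymphocytes. Transcript counts do not measure phosphorylation.

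Counted reads came to 64153676 (control) and 68554172 (knockout). Nrp2, the targeted gene, had 9686 and 1017 reads. Itgam, the selection antigen, was at 294 and 421.5 CPM, that is, counts scaled to a common depth with TMM-normalised library sizes. Since each group is a single pool, no spread between animals can be measured, no p-value was computed, and genes were described by a size rule of 2-fold. Genes seen in only 1 library, with more than 4 reads, had a median read number of 47 (control) and 24 (knockout). Each captured RNA fragment was therefore taken to be worth that many reads. The 95% exact conditional (Clopper-Pearson) intervals of the ratios below are on fragments and cover counting error only. A count of 0 allows up to 3 fragments.

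Reads of Stat5a and Stat5b cannot be fully separated, because the genes are near copies that lie beside each other on chromosome 11. Their transcripts share 608 stretches of 50 bases, 8.21% of those of Stat5a and 11% of those of Stat5b. The longest run shared by the coding sequences has 324 bases and spans exons 7 to 9 of Stat5a and 6 to 8 of Stat5b. The exon inside this run is printed below to show why the counting could split reads between the genes. It is exon 8 of Stat5a (chr11:100874339-100874490, plus strand) and exon 7 of Stat5b (chr11:100798234-100798385, minus strand), GRCm38, with the same 152 bases in both.
Stat5a exon 8 and Stat5b exon 7: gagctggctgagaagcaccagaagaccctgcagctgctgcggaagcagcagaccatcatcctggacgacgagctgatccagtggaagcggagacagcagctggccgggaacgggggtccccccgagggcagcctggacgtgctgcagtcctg

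The start regions of 3 genes are shown. Stat4 was the only member that differed by 2-fold or more, and Stat2 and Socs3 hold the matches found to STAT-type motifs. The windows are the 250 bases before the annotated start in RefSeq (GRCm38.p6), 5′ to 3′. The motifs TTCNNNGAA, the general STAT half-site pair, and TTCNNNNGAA, the wider form that STAT6 prefers, were searched. Each reads the same on both strands, and matches are in capitals. Socs3 is at chr11:117969367-117969616 (minus strand), Stat2 at chr10:128270248-128270497 (plus strand) and Stat4, from its first start, at chr1:51986898-51987147 (plus strand).
Socs3: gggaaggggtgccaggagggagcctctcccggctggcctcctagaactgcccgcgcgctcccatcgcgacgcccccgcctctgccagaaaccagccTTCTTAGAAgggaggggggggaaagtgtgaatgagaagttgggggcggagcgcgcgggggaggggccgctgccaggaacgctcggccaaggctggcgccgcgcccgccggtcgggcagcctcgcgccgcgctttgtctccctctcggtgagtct
Stat2: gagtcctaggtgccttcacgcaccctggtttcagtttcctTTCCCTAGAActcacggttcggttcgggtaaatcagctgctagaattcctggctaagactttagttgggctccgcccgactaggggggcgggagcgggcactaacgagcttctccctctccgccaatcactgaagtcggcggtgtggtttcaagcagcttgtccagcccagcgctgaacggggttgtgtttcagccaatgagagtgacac
Stat4: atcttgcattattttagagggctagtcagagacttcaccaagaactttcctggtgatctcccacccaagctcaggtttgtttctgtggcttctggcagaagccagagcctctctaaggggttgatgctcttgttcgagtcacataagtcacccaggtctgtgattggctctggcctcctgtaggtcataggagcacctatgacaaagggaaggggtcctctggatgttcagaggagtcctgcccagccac

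The match in Socs3 begins 154 bases before the RefSeq start, and that in Stat2 begins 210 bases before it. The Socs3 window lies wholly inside the gene span given below (chr11:117966079-117970047). That span comes from another annotation, which places the start of Socs3 further upstream. Of the 8 genes with a window, 11 windows in all, Socs3 alone held TTCNNNGAA and Stat2 alone held TTCNNNNGAA. No window was available for Socs2, so it was not searched. Among 32851 windows of this length, 7.02% held the first motif and 5.85% the second. A match is a description of these letters, not of a bound site.

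Stat4 was the only member that differed by 2-fold or more, and it was lower in the knockout library. All 9 members passed the filter of 50 reads over both libraries. Of these, 0 were 2-fold or more higher and 1 lower by as much. Across all 14420 genes that passed, 10.8% were 2-fold or more higher and 14.7% 2-fold or more lower. Every member also had at least 1000 reads, and among the 9054 such genes the shares were 4.5% and 4.02%. The median log2 ratio (knockout over control) was 0.13 over the members and -0.01 over all genes that passed. The interval on fragments lay wholly above 1 for Socs2 and Socs3, wholly below 1 for Stat4 and Stat5a, and included 1 for the other 5. Such an interval lay above 1 for 12.6% of all genes and below 1 for 11.1%, or 18.7% and 15.2% of those with at least 1000 reads. Stat4, Stat5a and Socs2 differed by 1.5-fold or more, as did 25.9% of the genes with at least 1000 reads. In the authors' deposited table the log2 fold changes of the members ran from -2.62 for Stat4 (standard error 1.15) to 0.75 for Socs2 (standard error 0.56). The adjusted p-values deposited there rest on 1 library per group. They cannot decide whether a member differed and are not used here.

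**Figure D1:**
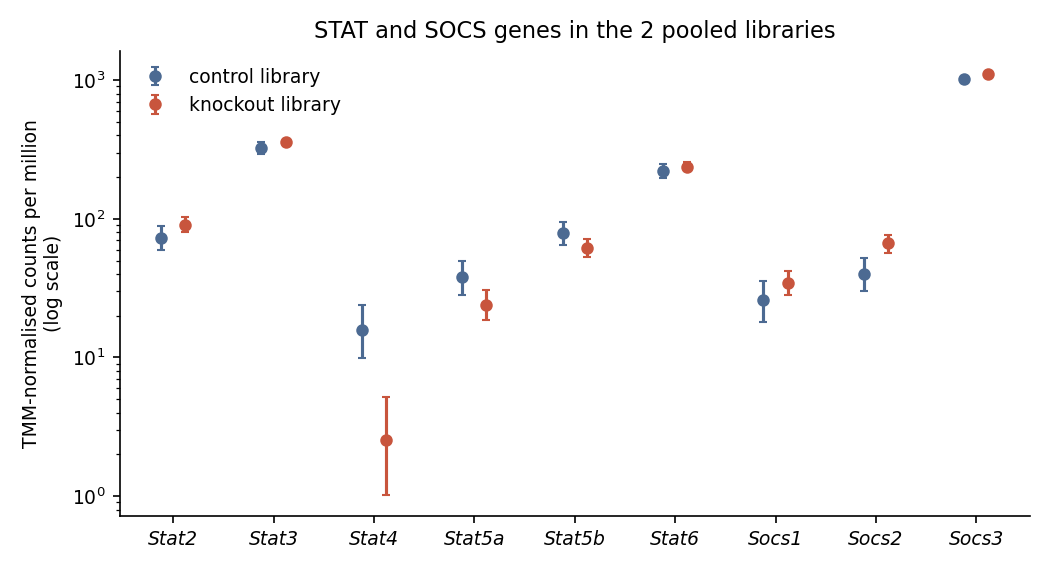
TMM-normalised CPM of each STAT and SOCS gene (log axis) in the control and knockout libraries, with 1 point per library and bars for the 95% exact Poisson interval on fragments, which covers counting error only. Socs3 is highest, at 1012 and 1106 CPM, and the points of Stat4, at 15.8 and 2.54 CPM, lie farthest apart.

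STAT4, the factor that carries IL-12 signals to T helper 1 and natural killer cells, is encoded by Stat4 (ENSMUSG00000062939, GRCm38 chr1:51987148-52107189, plus strand). It had 1038 control and 170 knockout reads, or 15.8 and 2.54 CPM. The level was lower by 6.23-fold with knockout (95% interval 2.58 to 17.2). The counts correspond to 22.1 and 7.08 fragments, so the size of the fold is known only loosely. Of its annotated exons, 1033 bases also belong to Gm28177, a processed transcript on the same strand, and the sources used here do not say how reads there were counted. By likeness of log2 ratio, the nearest of 108 other genes of the pathway with at least 1000 reads were Ccl24 (difference 0.30), Igf1 (0.63) and Il10 (0.68), a measure that rests on the 2 libraries alone.

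Lymphocyte genes were lower in the same library as Stat4. The counts in this and each later list stand beside shares over all genes of 10.8% 2-fold or more higher and 14.7% lower. With at least 1000 reads those shares were 4.5% and 4.02%. All 12 T cell markers (Cd3d, Cd3e, Cd4 and others) were 2-fold or more lower, with a median log2 ratio of -1.83, and their summed level was 224.3 CPM in the control and 69.5 CPM in the knockout library. Of 11 markers of natural killer and cytotoxic lymphocytes, 9 were 2-fold or more lower, and their sum was 149.5 and 50.9 CPM. The interval on fragments lay wholly below 1 for 11 T cell markers and for 5 of the natural killer and cytotoxic list. In the latter list it included 1 for 6 markers, and 4 markers had at least 1000 reads. No marker of either list was at 0 in a library. Of 10 conventional dendritic cell markers 8 were 2-fold or more lower, or 7 with Xcr1, at 0 in the knockout library, held at the floor, and their sum was 543.7 and 188.5 CPM. The part of these cells in the Stat4 difference was not tested. In RNA of a mixed cell pool, fewer cells of a type and less RNA per cell cannot be told apart.

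Of the genes known to respond to STAT4 in lymphocytes, 4 of 8 were 2-fold or more lower and 1 higher by as much (median log2 ratio -0.92). Gzmb, which encodes the cytotoxic protease granzyme B, had 2028 and 754 reads and was 2.74-fold lower (1.69 to 4.49). Il18rap, a chain of the IL-18 receptor, had 1550 and 3290 reads and was 2.08-fold higher (1.41 to 3.14), a fold that was under 2 with upper-quartile or total-count scaling. Furin, a protease gene with 21616 and 41950 reads, was 1.9-fold higher (1.72 to 2.11). The IL-12 receptor chain gene Il12rb1 was at 16.2 and 17.9 CPM (ratio 1.1, 0.66 to 1.9). Il12rb2 had 350 and 429 reads, and Il23r had 73 control reads and 0 knockout reads. The list therefore holds values in both directions. Of its 4 lower members (Tbx21, Ifng, Prf1 and Gzmb), only Gzmb had at least 1000 reads. Tbx21 (244 and 57 reads) and Ifng (558 and 267 reads) had intervals that include 1. All 4 are also genes of cytotoxic lymphocytes. Tbx21, Prf1 and Gzmb were already counted among the natural killer and cytotoxic markers above, so those lists are not independent.

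**Figure D2:**
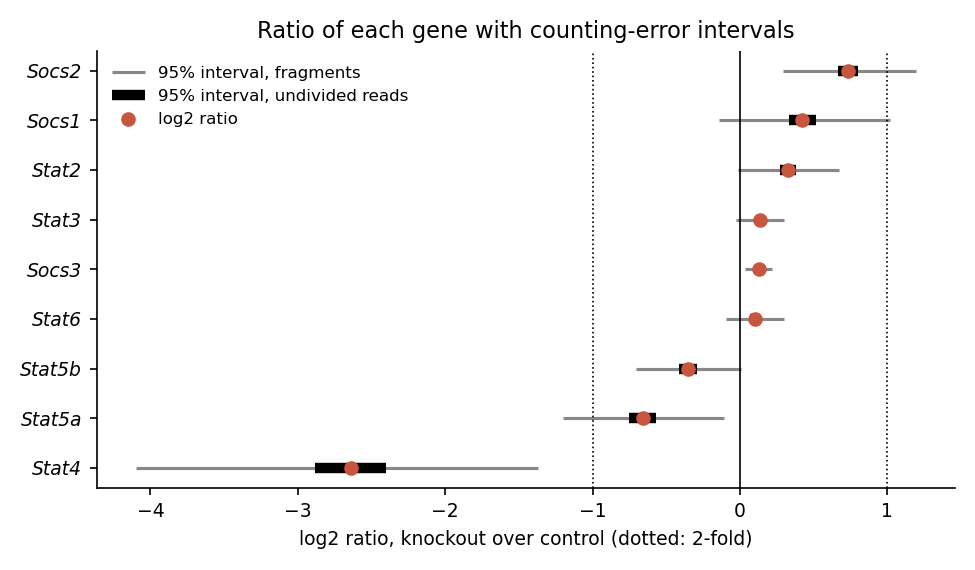
Log2 ratio of each gene, knockout over control, with the 95% interval on fragments (thin line) and on undivided reads (thick line), both for counting error only. The interval of Stat4 lies wholly beyond 2-fold lower (dotted line), while those of the other genes lie nearer to 0 and 5 of them include it on fragments.

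The STAT5 genes were both lower in the knockout library, by less than 2-fold. Stat5a (ENSMUSG00000004043, chr11:100859351-100885169, plus strand) had 2488 control and 1608 knockout reads, or 37.9 and 24 CPM. It was 1.58-fold lower (1.08 to 2.3). Stat5b (ENSMUSG00000020919, chr11:100780731-100850724, minus strand) had 5166 and 4132 reads, or 78.7 and 61.7 CPM. It was 1.28-fold lower, with an interval from 0.995 to 1.63 that includes 1. With upper-quartile or total-count scaling that interval lay wholly on the lower side. Since the counting could split reads between the genes, their sum is the firmer value. It was 116.6 CPM in the control and 85.7 CPM in the knockout library, 1.36-fold lower (1.11 to 1.67). The last exons of Stat5a and Stat3 overlap on opposite strands by 72 bases, and whether the counting used the strand is not stated.

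Genes that STAT5 is known to switch on went both ways. Of 10 such genes 4 were 2-fold or more lower and 0 higher by as much, with a median log2 ratio of -0.75. The member Socs2, also a STAT5 target and higher in the knockout library, is not among the 10 and is given below. Cish, the founding SOCS family gene and a feedback inhibitor of STAT5, had 5679 and 2812 reads and was 2.06-fold lower (1.58 to 2.68). Igf1, a growth factor gene, had 4894 and 1245 reads and was 4.01-fold lower (2.85 to 5.71). The cyclin genes Ccnd2 and Ccnd1 were 2.75-fold (2.0 to 3.79) and 2.19-fold (1.63 to 2.96) lower. Pim1, a survival kinase gene and the most counted of the list, was at 937.7 and 928.1 CPM (ratio 0.99, 0.926 to 1.06). Osm, the oncostatin M gene, was higher, at 706.1 and 938 CPM, 1.33-fold (1.23 to 1.43). Cish, Pim1 and Osm also stand on other lists, so the lists are not independent of each other.

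Receptor chains that use STAT5 went both ways. Of 13 measured chains of the beta common, gamma common and growth hormone receptor group, 2 were 2-fold or more higher and 4 lower by as much (median log2 ratio 0.07). Csf2rb, the signalling chain of the GM-CSF receptor and the most counted, was at 599.7 and 630.6 CPM (ratio 1.05, 0.968 to 1.14). It shares sequence with its near copy Csf2rb2, so both values are uncertain. Il15ra, the IL-15 receptor alpha chain, had 1036 and 4132 reads and was 3.91-fold higher (2.5 to 6.4). Il2rb was 2.65-fold lower (1.58 to 4.47) and Il21r 2.28-fold lower (1.84 to 2.81). Prlr (53 and 6 reads) and Epor (302 and 87 reads), also among the 4 lower, had intervals that include 1. The gamma common chain gene itself, Il2rg, is not among the 13, since it was counted with the IL-4 and IL-13 receptor chains. It had 11436 and 5734 reads and was also 2-fold or more lower, as given below. Il2ra had 648 and 355 reads, with a ratio whose interval includes 1 (0.537, 0.24 to 1.21).

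Socs2 had the largest ratio among members that were higher in the knockout library. SOCS2 restrains growth hormone signalling and is itself a target of STAT5. The gene (ENSMUSG00000020027, chr10:95385362-95417180, minus strand) had 2619 control and 4443 knockout reads, or 39.9 and 66.3 CPM. It was 1.66-fold higher (1.23 to 2.29). The values of Socs2 and Cish thus lay on opposite sides, with intervals that do not overlap. The growth hormone receptor gene Ghr, named here after its values were seen, had 73 and 370 reads (ratio 4.97, 1.01 to 69.4).

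Stat3 and Stat6, the most abundant STAT genes, differed little between the libraries. STAT3 carries signals of the IL-6 and IL-10 receptors. Stat3 (ENSMUSG00000004040, chr11:100885098-100939540, minus strand) had 21275 and 23827 reads, or 324 and 355.7 CPM, a ratio of 1.1 (0.981 to 1.23). STAT6 carries IL-4 and IL-13 signals and drives genes of alternative macrophage activation. Stat6 (ENSMUSG00000002147, chr10:127642986-127660957, plus strand) had 14500 and 15886 reads, or 220.9 and 237.2 CPM, a ratio of 1.07 (0.937 to 1.23). Both intervals include 1 and leave out any difference beyond 1.23-fold in counting error. Between animals such a difference could still exist, since the pools give no spread.

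Socs3, a STAT3 target that blocks signalling through the gp130 receptor chain, was the most counted member. The gene (ENSMUSG00000053113, chr11:117966079-117970047, minus strand) had 66441 control and 74081 knockout reads, or 1012 and 1106 CPM. Its ratio was 1.09 (1.03 to 1.16), and the interval included 1 with upper-quartile or total-count scaling. SOCS1 inhibits JAKs and restrains interferon signalling. Socs1 (ENSMUSG00000038037, chr16:10782240-10785536, minus strand) had 1698 and 2323 reads, or 25.9 and 34.7 CPM, a ratio of 1.34 with an interval of 0.906 to 2.02 that includes 1. The 3 SOCS members thus had ratios above 1, and that of Socs2 alone kept an interval above 1 under each of the 4 scalings.

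**Figure D3:**
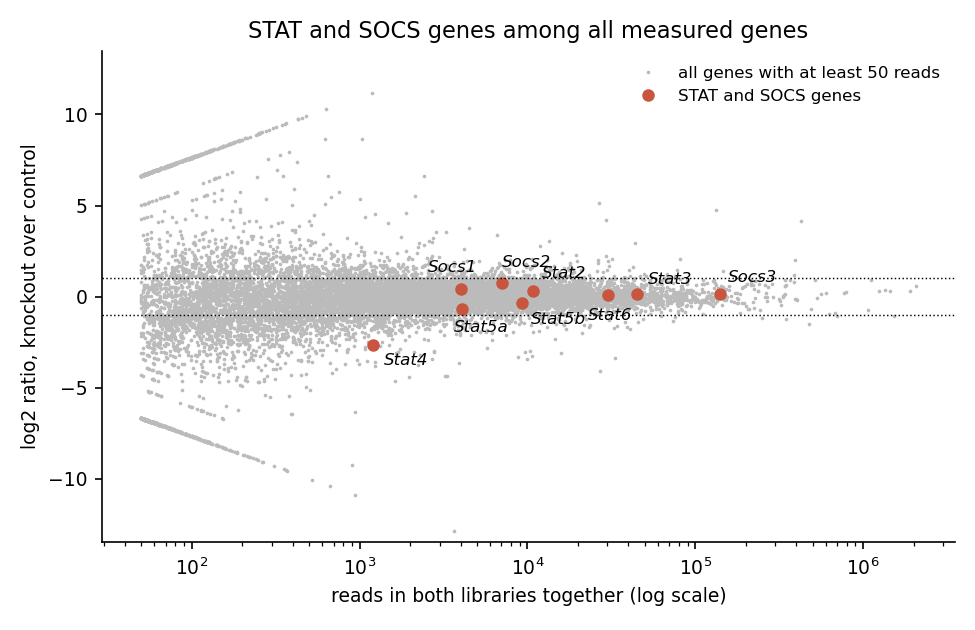
Log2 ratio (knockout over control) against the reads of each gene in both libraries together (log axis), with all genes of at least 50 reads in grey and the STAT and SOCS genes in red. Stat4 lies below the dotted 2-fold line and the other 8 genes lie between the lines, where most genes of similar read number lie.

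The upstream and downstream genes of STAT3 split. Of 10 gp130 and IL-10 receptor chains, 1 was 2-fold or more higher and 1 lower by as much (median log2 ratio -0.05), or 2 lower with upper-quartile or total-count scaling. Il6ra, the IL-6 binding chain, had 6246 and 9081 reads and was 1.43-fold higher (1.17 to 1.75). Il6st, which encodes gp130, had 3235 and 5161 reads and was 1.56-fold higher (1.19 to 2.08). Il10ra, the IL-10 binding chain, was at 370.2 and 268 CPM and was 1.38-fold lower (1.23 to 1.55). Lepr, the leptin receptor, had 49 and 1027 reads and was 20.5-fold higher (3.59 to 730). Its 49 control reads are little more than the 47 taken as 1 fragment, so the size of this fold is known only loosely. The ligand gene Il6 had 2490 and 1598 reads and was 1.59-fold lower (1.09 to 2.31), and Il10 had 4132 and 1084 reads and was 3.89-fold lower (2.69 to 5.72).

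Among 16 genes that STAT3 is known to induce, 3 were 2-fold or more higher and 0 lower by as much, while the median log2 ratio was -0.01. All 16 had at least 1000 reads, a limit at which 4.5% of all genes were higher and 4.02% lower by as much. The member Socs3, given above, is not among the 16. With upper-quartile or total-count scaling 1 was lower by as much, Il1rn. The 3 higher genes were acute-phase genes. Saa3, a serum amyloid, had 4598 and 127688 reads, Hp, the haptoglobin gene, had 3260 and 16209, and Lcn2, an iron-sequestering lipocalin, had 256 and 2467. Their folds were 27.2 (22.3 to 33.6), 4.87 (3.8 to 6.33) and 9.45 (4.05 to 28). Il1rn, the IL-1 receptor antagonist, went the other way, at 1118 and 572 CPM, 1.95-fold lower (1.82 to 2.1). The early response genes Junb, at 2033 and 2015 CPM, and Bcl3, at 51.5 and 49.8 CPM, had ratios of 0.991 (0.947 to 1.04) and 0.966 (0.722 to 1.3). Bcl3 was named after its values were seen. Neutrophils and fat cells also make acute-phase proteins. Of 9 measured neutrophil markers 3 were 2-fold or more higher and 1 lower, with a summed level of 1403 and 1410 CPM. With Ly6g, at 0 in the control library, held at the floor, 2 were higher. Of 8 adipocyte markers 7 were 2-fold or more higher, or 5 with the 3 markers at 0 in the control library (Plin1, Retn and Adipoq) held at the floor, and their sum was 111 and 216 CPM. The part of these cells in the values of Saa3, Hp and Lcn2 was not tested.

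Genes known to respond to STAT6 spanned a wider range than Stat6 itself and its receptor chains, of which 1 of 3 measured, Il2rg, passed 2-fold. Il4ra, the shared chain of the IL-4 and IL-13 receptors, was at 746.9 and 668.4 CPM, 1.12-fold lower (1.04 to 1.21), and Il13ra1 was at 152 and 176.9 CPM (ratio 1.16, 0.989 to 1.37). Il2rg, the gamma common chain, was 2.03-fold lower (1.69 to 2.44). Of 16 STAT6 targets 7 were 2-fold or more lower and 2 higher by as much, with a median log2 ratio of -0.84. All 16 had at least 1000 reads, a limit at which 4.02% of all genes were lower and 4.5% higher by as much. Mgl2, a galactose lectin, had 30501 and 2974 reads and was 10.5-fold lower (8.6 to 12.8). The eosinophil chemokine Ccl24 was 5.06-fold lower (4.01 to 6.43), and Alox15, a lipoxygenase gene, 3.88-fold lower (3.0 to 5.03). Chil3, a chitinase-like gene with near copies, was 17.9-fold higher (16.4 to 19.7), with 22208 and 406378 reads. Arg1, the arginase gene, named after its values were seen, was 1.9-fold higher (1.82 to 1.99). Genes of this list are also expressed by dendritic cells, whose markers were lower as given above, and their part was not tested. Ccl22, at 149.4 and 47.6 CPM, stands on this list and among the dendritic cell markers, so those lists are not independent. Cdh1 stands on this list and among the epithelial tumour cell markers.

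STAT2 pairs with IRF9 to form the factor that drives genes with interferon-stimulated response elements. Stat2 (ENSMUSG00000040033, chr10:128270559-128292849, plus strand) had 4759 control and 6087 knockout reads, or 72.5 and 90.9 CPM. Its ratio was 1.25, with an interval of 0.992 to 1.6 that includes 1 and lay wholly above 1 with DESeq2 size factors. Of 22 type I interferon targets 1 was 2-fold or more higher and 0 lower by as much, and the median log2 ratio was -0.03. Rsad2, an antiviral enzyme gene, had 5210 and 13138 reads and was 2.47-fold higher (2.01 to 3.06). Ifit1, at 20.2 and 40.1 CPM, had a ratio of 1.99 (1.3 to 3.12) and passed 2-fold with DESeq2 size factors. Irf7 was 1.77-fold higher (1.48 to 2.13) and Ifih1 1.53-fold higher (1.18 to 2). Irf9, the partner of STAT2, named after its values were seen, was at 86 and 65.8 CPM and was 1.31-fold lower (1.03 to 1.65).

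The interferon receptor chains stayed within 2-fold where read in both libraries. Ifngr1, which binds interferon gamma, was at 279.4 and 396.1 CPM, 1.42-fold higher (1.26 to 1.59). Ifngr2 was 1.21-fold lower (1.02 to 1.43), and the ratios of Ifnar1 (0.941, 0.815 to 1.09) and Ifnar2 (1.01, 0.821 to 1.24) had intervals that include 1. Ifnlr1 had 119 reads in the knockout library and 0 in the control library, under the control floor of 3 fragments.

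Of the 4 JAK kinase genes, 0 differed by 2-fold (median log2 ratio -0.26). Jak3, which pairs with the gamma common chain, had 5075 and 3222 reads and was 1.61-fold lower (1.24 to 2.09). Tyk2, the kinase of the interferon and IL-12 receptors, was at 100.7 and 77.1 CPM, 1.31-fold lower (1.05 to 1.62). Jak2 had a ratio of 0.913 (0.788 to 1.06) and Jak1 of 1.1 (0.97 to 1.24). Jak3 was thus lower together with its receptor chain Il2rg, and the kinases with most reads, Jak1 and Jak2, had intervals that include 1.

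The other SOCS genes and inhibitors were mostly within 2-fold. Of Cish, Socs4, Socs5, Socs6 and Socs7, 2 were 2-fold or more lower and 0 higher by as much (median log2 ratio -0.08). These were Cish and Socs5, the latter named after its values were seen, with 738 and 172 reads and a 4.38-fold lower level (1.71 to 12.5). Socs4, Socs6 and Socs7 had ratios of 1.31 (0.856 to 2.05), 1.36 (0.928 to 2.03) and 0.945 (0.645 to 1.4). Of 11 other inhibitors 0 differed by 2-fold (median -0.05). Ptpn6, the phosphatase SHP-1 of blood cells, was at 362.9 and 213.9 CPM and was 1.7-fold lower (1.5 to 1.91). Pias4, an inhibitor that attaches SUMO, was 1.83-fold lower (1.16 to 2.88). The ratios of Ptpn2 (0.799, 0.597 to 1.08), Usp18 (0.785, 0.516 to 1.21) and Ptpn1 (1.04, 0.93 to 1.17) had intervals that include 1.

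Cytokine ligand genes were mostly low in counts. Of 18 measured ligands 8 were 2-fold or more lower and 3 higher by as much (median log2 ratio -0.75). With those at 0 in 1 library held at the floor, 7 were lower and 2 higher. Only 6 of the 18 had at least 1000 reads, and of these Il10 was the 1 past 2-fold. Osm, given above among the STAT5 targets, was the most counted of them. Ebi3, a subunit of IL-27 and IL-35, was 1.77-fold lower (1.2 to 2.6).

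**Figure D4:**
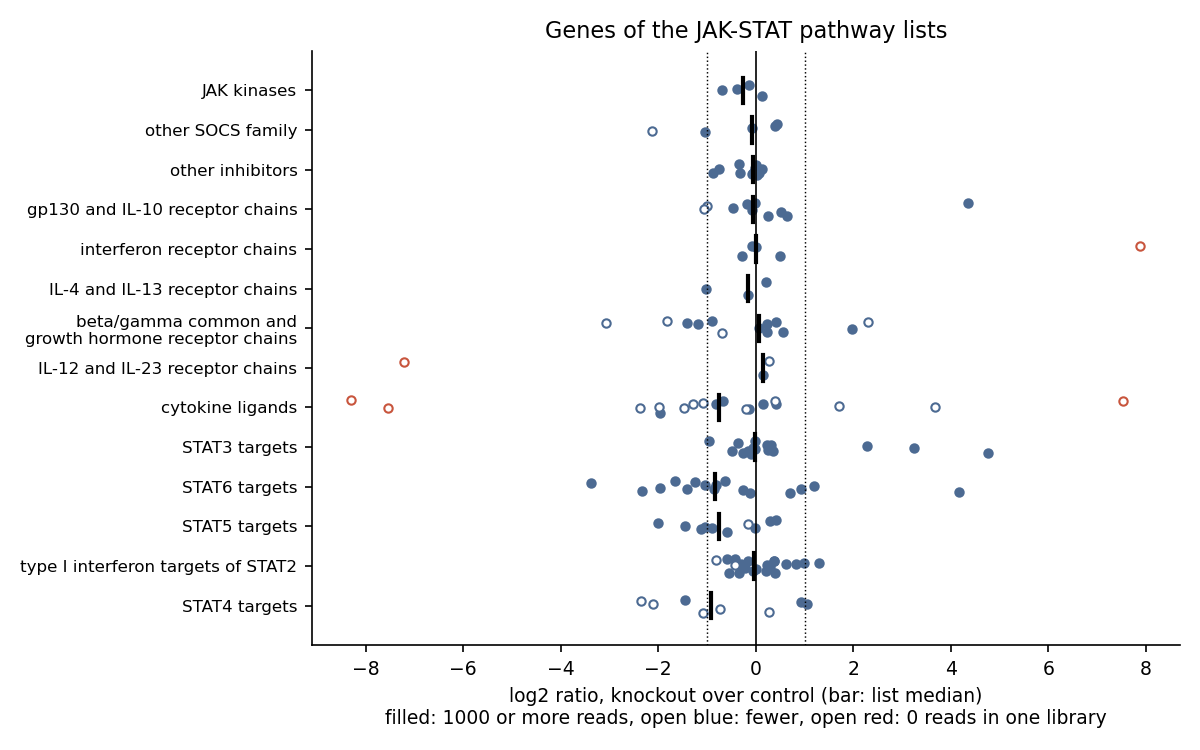
Log2 ratio (knockout over control) of each gene with at least 50 reads in the 14 JAK-STAT pathway lists, with a bar at each list's median. The kinases and other inhibitors lie between the dotted 2-fold lines, and the filled points (1000 or more reads) farthest to the right are Saa3, Lepr and Chil3.

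Over the 136 measured genes of the 14 lists together, 14 were 2-fold or more higher and 30 lower by as much, or 10.3% and 22.1%, beside 10.8% and 14.7% of all genes. Of the 108 with at least 1000 reads, 9 were higher and 16 lower, or 8.33% and 14.8%, beside 4.5% and 4.02%. The median log2 ratio of the 136 was -0.13. The lists were chosen with earlier results of these data known, and these shares describe 2 libraries.

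Per length, the members kept much of their order between the libraries. Levels were set as CPM per kilobase of annotated exon, and compared on fragments within a library. In the control library the order was Socs3 (350), Stat6 (50.2), Stat3 (34), Stat5b (14.2), Stat2 (12.2), Socs1 (8.89), Stat5a (5.31), Socs2 (4.18) and Stat4 (4.08). In that order the intervals of the ratio included 1 between Stat5b and Stat2, Stat2 and Socs1, Stat5a and Socs2, and Socs2 and Stat4. In the knockout library the order was Socs3 (382.5), Stat6 (53.9), Stat3 (37.3), Stat2 (15.3), Socs1 (11.9), Stat5b (11.1), Socs2 (6.96), Stat5a (3.36) and Stat4 (0.655). There the interval included 1 between Socs1 and Stat5b only. Stat6 and Stat3 made up 41.8% and 28.3% of the summed level of the 6 STAT members in the control library and 44.3% and 30.7% in the knockout library. The share of Stat4 was 3.4% and 0.539%. These intervals hold for exon length only. With the longest transcript as length, Stat2 came before Stat5b in the control library, and Stat5a (9.57) and Socs2 (9.4) before Socs1 (8.89). In the knockout library Socs2 (15.6) then came before Socs1 (11.9) and Stat5b (11.8). Under both lengths Socs3, Stat6 and Stat3 came first and Stat4 last in each library, while the places between them depend on the length used.

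**Figure D5:**
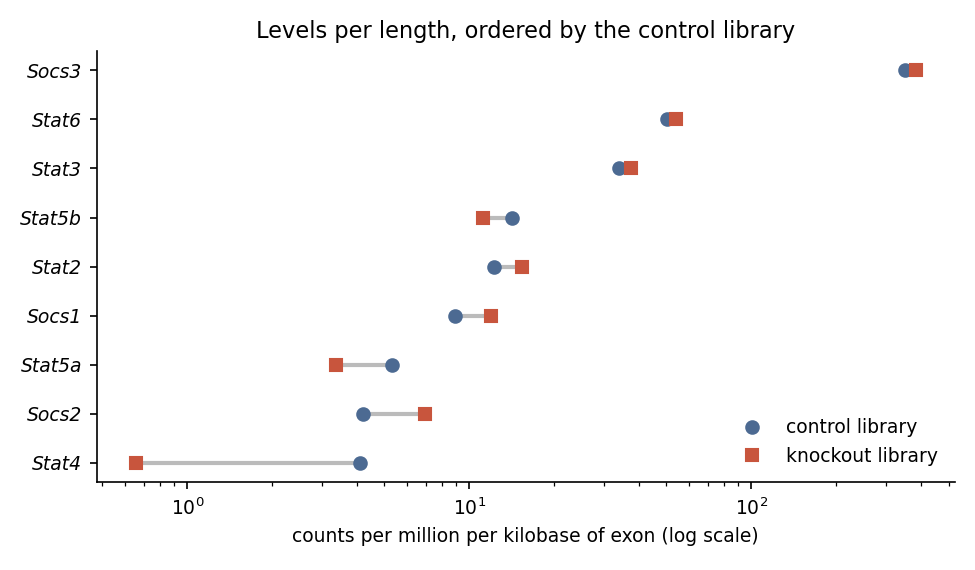
CPM per kilobase of annotated exon (log axis) of each gene in the control library (circles) and the knockout library (squares), ordered by the control library. Socs3 stands above all others, at 350 and 382.5, and Stat4 shows the widest gap, at 4.08 and 0.655.

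Markers of the cells that the selection could hold describe the background of these values. Macrophage markers were mostly within 2-fold, with 1 of 10 2-fold or more higher and 0 lower. Of 10 monocyte markers 3 were 2-fold or more higher and 5 lower. Of 8 B cell markers 7 were 2-fold or more lower, or 6 with Pax5, at 0 in the knockout library, held at the floor. The interval on fragments lay wholly below 1 for 4 of the 8 and included 1 for the other 4. Epithelial tumour cell markers (3 of 7 measured) and fibroblast markers (3 of 8) were 2-fold or more lower, and 0 of either list was higher. Stat3, Stat6 and Socs3, the members read most, are expressed by many of these cell types, and the share of each type in their counts was not tested.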

How the data were processed

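Messenger RNA (TruSeq stranded kit, per the labels' protocols) of 2 pooled libraries was analysed, grouped by sample title. The submitters' processing notes name cutadapt, HISAT2, featureCounts and GRCm38, with no versions; the sources used here give neither the annotation release nor the strand setting. The authors deposited whole-number counts per Ensembl gene, without normalisation. Their deposited comparison table gives normalised values (a signal, counts divided by a constant per library, per the file headers), a log2 fold change with its standard error, a score that is the quotient of these, and a p-value, raw and adjusted. The sources used here do not name its tool.

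Of 49585 identifiers, 49326 matched a symbol in GENCODE M21 (GRCm38), which also gave positions and exon lengths. Library sizes were scaled by TMM (edgeR 4.0.16, R 4.3.3). Log2 ratios used a prior of 0.5 counts and are given where both libraries together held at least 50 counts. Printed folds are plain ratios of CPM. Reads per fragment (47 and 24) came from 867 and 2114 genes seen in 1 library only. No molecular identifiers are named, so duplicates count as reads. The ratio and interval code was run on simulated data. These were drawn with the same fixed reads per fragment, so the run could not test that assumption. Alternatives were DESeq2 1.42.0 size factors, upper-quartile and total-count scaling, a prior of 5, other count limits, a 1.5-fold rule, undivided reads and transcript length.

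The members and the 14 pathway and 10 marker lists were chosen with earlier results of these data known. Named genes are the members and, per pathway list, up to 4 with the largest absolute log2 ratio among those with at least 1000 counts, the most counted gene and all JAK genes. Ghr, Bcl3, Arg1, Irf9, Socs5, Il12rb2, Il23r, Ifnlr1, Tbx21, Ifng, Prf1, Csf2rb2, Prlr, Epor, Ccl22, Cdh1 and the example markers fall outside this rule and were named after their values were seen.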

Additional observations from a re-analysis of the deposited data

How the results depend on the processing

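Every member kept the sign of its log2 ratio under all scalings and the prior of 5, and Stat4 ranged from -2.70 to -2.60. Scaling by size factors, upper quartile or total counts shifted all log2 ratios by 0.01, -0.06 and -0.07. The fragment interval of Socs3 included 1 under upper-quartile and total-count scaling, that of Stat5b then lay below 1, and that of Stat2 lay above 1 with DESeq2 size factors. On undivided reads 6 members had an interval wholly above 1 and 3 below. A 1.5-fold rule took 1 member as higher (Socs2) and 2 as lower (Stat4 and Stat5a), where 25.9% of genes with at least 1000 reads pass it either way. Over all genes, 1558 were at least 2-fold higher and 2124 lower. Without a count filter these were 4131 and 3272, and with at least 1000 counts 407 and 364, fewer genes being counted. In the pathway lists 9 and 16 remained past 2-fold at that limit, of 14 and 30. No paired analysis was possible because each group has 1 library. For the same reason no library could be left out. Depth limits Stat4 most, with 7.08 fragments in the knockout library.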
